A study of Mus musculus with 8 samples.

Results

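The genes described here drive the cell cycle and mitosis. A list of 44 genes was used, and each was read from its brightest probe set (averaged over the 8 arrays) among those paired with that gene alone. Of these, 43 were measured among the 18194 genes tested, since no probe set was paired with Ccnb1 in the annotation used, and Ccnb1 is not analysed here. By role the measured genes are 6 regulators of G1, 3 inhibitors of cyclin-dependent kinases, 16 genes of S phase and 18 genes of G2 and mitosis. The question was whether the hypothalamus of Nestin-Pex5-/- mice carried signs of dividing glia, and whether S phase genes and mitosis genes differed in this.

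Transcripts were measured in the hypothalamus of 4 Nestin-Pex5-/- mice and 4 wild type mice, all 10 weeks old and untreated, with 1 Affymetrix mouse genome array per mouse. Nestin-Pex5-/- mice carry a floxed gene for Pex5, the receptor that imports peroxisomal matrix proteins, together with a Cre recombinase under the Nestin promoter, and were bred into a Swiss Webster background. Nestin is active in neural progenitors, so neurons, astrocytes and oligodendrocytes descend from cells that expressed Cre, whereas microglia come from another lineage. Wild type mice are labelled as such, with no further allele named, and the sex of the mice was not stated. Values are log2 signals normalised by the authors with RMA, a difference of 1 being a doubling, and the mice are numbered 7 to 10 (Nestin-Pex5-/-) and 1 to 4 (wild type) as in the labels.

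A cell that divides passes a checkpoint in G1, copies its DNA in S phase and separates the copies in mitosis. D cyclins with Cdk4 and Cdk6 phosphorylate the retinoblastoma protein, which frees E2F factors to turn on S phase genes. A later wave of transcription through B-MYB and FOXM1 supplies the mitotic machinery. In the adult brain most neurons have left the cycle for good, and the cells that still divide are mainly oligodendrocyte precursors, neural progenitors of restricted niches, vascular cells and, in response to damage, microglia and astrocytes.

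Both waves can be read in promoter letters, and the stretches of 5 genes are shown because the results turn on them or because they carry the words of both classes. Each stretch is the 200 bases before 1 transcription start of the gene in RefSeq on GRCm38.p6, written in the direction of transcription. All 5 genes lie on the minus strand. For Ncapd2, Mki67 and Top2a the start used lies inside the gene, whose annotated span reaches chr6:125192100, chr7:135716450 and chr11:99024199. Distances given below are from the start used. Capitals mark 3 motifs on either strand: the cell cycle homology region TTTGAA, at which the DREAM complex binds, the CCAAT box, bound by NF-Y, and the E2F words TTTCCCGC, TTTCGCGC, TTTGGCGC and TTTGCCGC. The stretches are chr10:69352913-69353112 for Cdk1, chr7:135716380-135716579 for Mki67, chr11:99024190-99024389 for Top2a, chr1:128359706-128359905 for Mcm6 and chr6:125191587-125191786 for Ncapd2.
Cdk1: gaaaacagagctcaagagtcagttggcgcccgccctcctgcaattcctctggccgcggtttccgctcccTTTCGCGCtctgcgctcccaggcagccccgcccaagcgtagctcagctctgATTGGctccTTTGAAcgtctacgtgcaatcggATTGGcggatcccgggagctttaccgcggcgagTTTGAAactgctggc
Mki67: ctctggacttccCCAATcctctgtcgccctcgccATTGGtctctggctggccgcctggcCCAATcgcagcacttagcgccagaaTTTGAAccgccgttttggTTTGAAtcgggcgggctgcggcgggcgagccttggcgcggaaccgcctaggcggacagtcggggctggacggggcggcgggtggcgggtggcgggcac
Top2a: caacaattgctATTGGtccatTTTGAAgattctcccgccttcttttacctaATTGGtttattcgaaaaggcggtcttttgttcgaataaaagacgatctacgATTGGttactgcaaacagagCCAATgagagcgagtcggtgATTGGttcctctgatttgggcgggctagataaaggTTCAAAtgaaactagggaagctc
Mcm6: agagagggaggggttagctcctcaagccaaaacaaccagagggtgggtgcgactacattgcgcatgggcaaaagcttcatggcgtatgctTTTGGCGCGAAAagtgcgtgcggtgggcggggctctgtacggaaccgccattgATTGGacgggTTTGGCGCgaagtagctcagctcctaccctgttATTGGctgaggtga
Ncapd2: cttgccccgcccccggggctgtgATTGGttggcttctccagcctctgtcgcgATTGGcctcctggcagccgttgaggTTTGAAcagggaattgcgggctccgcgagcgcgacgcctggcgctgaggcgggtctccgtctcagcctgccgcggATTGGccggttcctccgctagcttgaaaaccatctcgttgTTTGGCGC

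Cdk1 held TTTGAA at 71 and at 15 bases before its start, each a short way downstream of a CCAAT box on the other strand, and an E2F word at 131 bases. In Mki67 the word TTTGAA lay at 116 and 98 bases before the start, downstream of 3 CCAAT boxes, and no E2F word was found. Mcm6, a subunit of the replicative helicase, had E2F words and CCAAT boxes but no TTTGAA, and where a pair of its E2F words on opposite strands overlap the capitals run together. Ncapd2, a condensin subunit that is not on the list of 44, held all 3 motifs.

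Over windows of 250 bases before to 50 after the start, promoters were given for 36 of the 44 genes (those of Ccnd1, Ccnd2, Rb1, Ccne2, Mcm4, Ccna2, Aurkb and Kif20a were not used here). TTTGAA was found in 10 of 16 mitosis genes (62.5%), against 2 of 14 S phase genes (14.3%) and 20.2% of all 27025 genes with a promoter. E2F words were found in 1 of 16 mitosis genes (6.25%), namely Cdk1, against 7 of 14 S phase genes (50%) and 2.6% of all genes. The CCAAT box was found in 13 of 16 mitosis genes (81.2%), in 10 of 14 S phase genes (71.4%) and in 41.1% of all genes. Most matches to TTTGAA were thus in mitosis genes and most E2F words in S phase genes, Cdk1 carried both, and Mcm2 and Cdc45 were the S phase genes with TTTGAA. A match is a description of the sequence and not a bound site, and matches that overlap were counted.

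None of the 43 measured genes of the list passed the test. With limma and Benjamini-Hochberg adjustment over all genes, 0 of the 43 were up regulated in Nestin-Pex5-/- hypothalamus and 0 were down regulated. The threshold was an adjusted p of 0.05. Of all genes, 3.98% were higher and 0.791% were lower, and for 43 genes a count of 0 is near these shares. At an unadjusted p below 0.05, 6 were higher (Cdk1, Ccnd1, Rb1, Birc5, Cdk4 and Top2a) and 1 was lower (Tyms), whereas 8.85% of all genes were higher and 8.01% were lower at that level. The lowest adjusted p was 0.0971, for Tyms. The log2 fold changes had a median of 0.05, against -0.03 over all genes, with 26 above 0 and 17 below. Their folds ran between 0.839, for Cdkn1b, and 1.35, for Cdk1, and 2 genes differed by more than 0.3 on the log2 scale, Cdk1 and Ccnd1.

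All mice of a genotype lay on one side of the other in 1 gene that was higher, Cdk4, and in 1 that was lower, Tyms, whereas 6.63% of all genes were higher without overlap and 4.51% were lower without overlap. The standard error of a log2 fold change had a median of 0.104 over the 43 genes. Of their 95% confidence intervals, 36 held 0, and the upper bound lay below 0.5 for 38 genes and below 1 for all 43. The highest upper bound was 0.74, a fold of 1.67, for Cdk1. These intervals are of the probe signal, and background in that signal makes a change in mRNA look smaller by an unknown amount. In bulk tissue more cells of a type and more RNA per cell cannot be told apart, and a change confined to few cells is diluted by the rest.

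**Figure D1:**
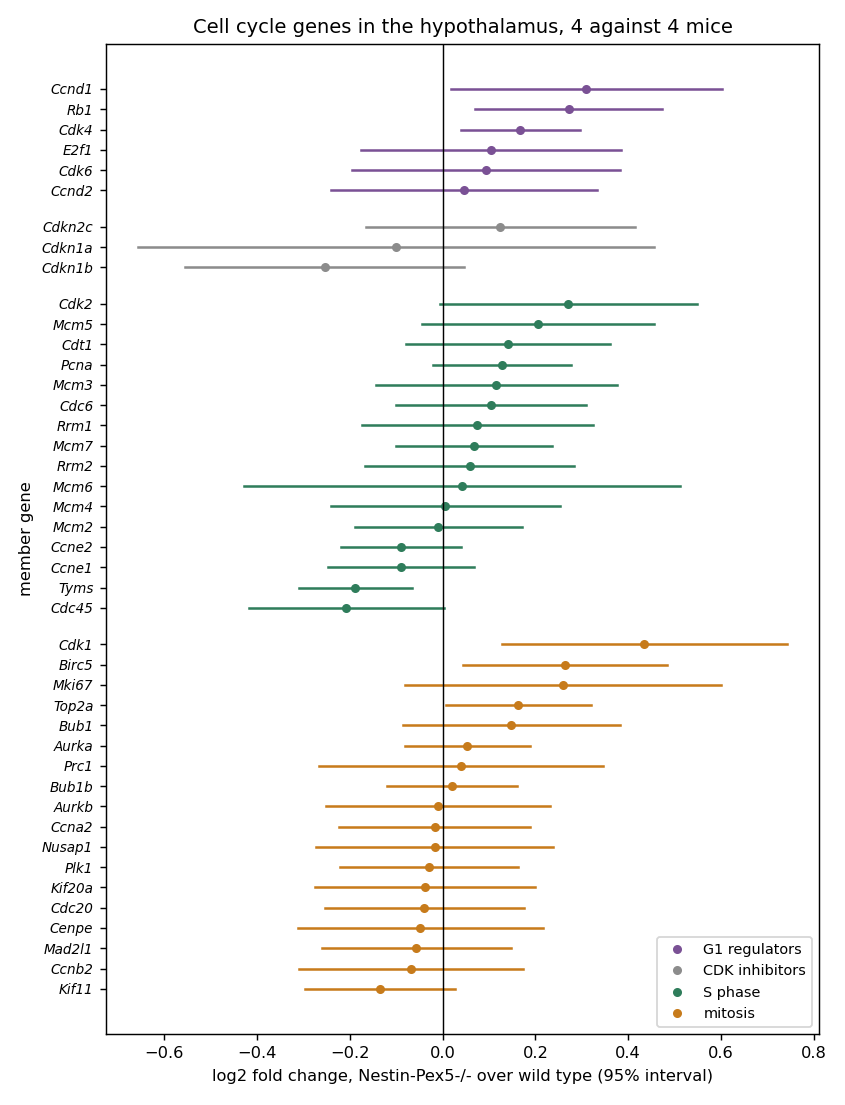
Log2 fold change of each measured cell cycle gene, Nestin-Pex5-/- over wild type (horizontal axis), with its 95% confidence interval from limma (lines), 4 mice per genotype, genes grouped by role and coloured by group. All 6 G1 regulators lie above 0, S phase and mitosis genes lie on both sides, and 36 of the 43 intervals cross 0.

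Of the G1 regulators, all 6 had a log2 fold change above 0, with a median of 0.14, and none passed the test. Ccnd1, the cyclin that couples growth factor signals to Cdk4 and Cdk6, had 8.52, 8.38, 8.69 and 8.82 in Nestin-Pex5-/- mice 7 to 10, against 8.22, 8.33, 8.03 and 8.59 in wild type mice 1 to 4. Wild type mouse 4 reached into the range of the Nestin-Pex5-/- mice, and the other wild type mice lay below all of them. Ccnd1 differed by 0.31 ± 0.13 (SE, limma adjusted p = 0.270), and the other probe sets of Ccnd1 gave 0.35 and 0.31. Ccnd2, the related D cyclin, had 8.71, 9.06, 9.28 and 9.18 in Nestin-Pex5-/- mice and 9.06, 9.21, 8.96 and 8.82 in wild type mice. Here the genotypes were mixed throughout, with the lowest value in Nestin-Pex5-/- mouse 7, and the log2 fold change was 0.05 (adjusted p = 0.891 in limma).

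Cdk4, the kinase partner of the D cyclins, was read with the least spread of this group. Its values were 9.20, 9.12, 9.17 and 9.11 in Nestin-Pex5-/- mice and 9.02, 8.97, 8.89 and 9.05 in wild type mice. All Nestin-Pex5-/- mice lay above all wild type mice, by a small step. The log2 fold change was 0.17 ± 0.057 (SE, limma adjusted p = 0.165), and the exact two-sided permutation test over the 70 assignments of the arrays gave p = 0.029, the smallest it can give with 4 against 4. This probe set is of a kind that can also bind related transcripts, and the remaining probe sets of Cdk4 gave 0.20 and 0.19.

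Rb1, the retinoblastoma protein that holds E2F factors in check, had 9.49, 9.62, 9.72 and 9.89 in Nestin-Pex5-/- mice, against 9.38, 9.39, 9.54 and 9.32 in wild type mice. Only wild type mouse 3 lay above Nestin-Pex5-/- mouse 7. Rb1 differed by 0.27 ± 0.089 (SE, limma adjusted p = 0.148), and its second probe set gave 0.08. The kinase Cdk6 and the transcription factor E2f1 differed by 0.09 and 0.11, with 95% intervals from -0.20 to 0.38 and from -0.17 to 0.39.

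The inhibitors were on both sides of 0, with a median of -0.10. Cdkn1a encodes p21, the p53 target that arrests the cycle after damage. It had 8.0, 7.93, 7.99 and 8.03 in Nestin-Pex5-/- mice and 7.93, 7.54, 8.96 and 7.93 in wild type mice. The Nestin-Pex5-/- mice were nearly alike, whereas wild type mice 2 and 3 were the lowest and the highest of all, so that the mean difference of -0.10 (limma adjusted p = 0.876) turned to 0.19 without wild type mouse 3. Cdkn1b, which encodes p27, had 10.04, 10.22, 9.86 and 9.82 in Nestin-Pex5-/- mice, against 10.08, 10.15, 10.11 and 10.62 in wild type mice. The difference of -0.25 (limma adjusted p = 0.381) shrank to -0.13 without wild type mouse 4. Cdkn2c, an inhibitor of Cdk4 and Cdk6, differed by 0.12.

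S phase genes differed by little, with a median log2 fold change of 0.06, and 11 of 16 were above 0. Pcna, the sliding clamp of the DNA polymerases, had 10.81, 10.98, 10.91 and 10.81 in Nestin-Pex5-/- mice, against 10.75, 10.75, 10.65 and 10.86 in wild type mice. Wild type mouse 4 again lay among the Nestin-Pex5-/- mice. Pcna differed by 0.13 ± 0.067 (SE, limma adjusted p = 0.375).

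The 6 subunits of the MCM helicase, which unwinds DNA at the fork, differed by 0.21 (Mcm5), 0.12 (Mcm3), 0.07 (Mcm7), 0.04 (Mcm6), 0.01 (Mcm4) and -0.01 (Mcm2) on the log2 scale. Mcm2 had 7.14, 6.90, 7.14 and 7.05 in Nestin-Pex5-/- mice and 6.94, 7.02, 7.08 and 7.22 in wild type mice. These values were mixed, with the lowest and the highest in different genotypes, and the interval of the difference ran from -0.19 to 0.17 (limma adjusted p = 0.970). A second probe set of Mcm2 gave 0.21. Mcm6, whose promoter is printed above, had 7.34, 7.64, 6.56 and 7.0 in Nestin-Pex5-/- mice, against 7.27, 7.03, 7.25 and 6.82 in wild type mice. Its spread in Nestin-Pex5-/- mice was wide, with mice 7 and 8 at the top and mouse 9 lowest of all.

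Tyms encodes thymidylate synthase, which makes the thymidine nucleotide. Its values were 4.34, 4.35, 4.42 and 4.28 in Nestin-Pex5-/- mice and 4.49, 4.54, 4.59 and 4.52 in wild type mice. Every Nestin-Pex5-/- mouse lay below every wild type mouse. The log2 fold change was -0.19 ± 0.054 (SE, limma adjusted p = 0.0971, exact permutation p = 0.029). The other 3 probe sets paired with Tyms alone gave 0.05, -0.04 and -0.01, so the probe sets of this gene did not read alike.

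The rest of the S phase genes held no larger difference than that of Cdk2, the kinase of the E and A cyclins, at 0.27 (limma adjusted p = 0.308). Its E cyclin partners Ccne1 and Ccne2 both differed by -0.09. Of the factors that load and fire origins of replication, Cdt1 differed by 0.14, Cdc6 by 0.10 and Cdc45 by -0.21. Rrm1 and Rrm2, the subunits of ribonucleotide reductase, differed by 0.08 and 0.06.

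Mitosis genes had a median log2 fold change of -0.01, with 8 of 18 above 0, and the few largest differences were upward. Cdk1, the kinase that drives entry into mitosis, had the largest of the 43 genes. It had 6.37, 6.65, 6.97 and 7.01 in Nestin-Pex5-/- mice 7 to 10, against 6.19, 6.29, 6.30 and 6.49 in wild type mice 1 to 4. Only wild type mouse 4 lay above Nestin-Pex5-/- mouse 7, and Nestin-Pex5-/- mice 9 and 10 stood apart at the top. The means were 6.75 ± 0.30 in Nestin-Pex5-/- mice and 6.32 ± 0.12 in wild type mice (SD, n = 4 each, exact permutation p = 0.057). The log2 fold change was 0.43 ± 0.14 (SE, limma adjusted p = 0.130). Without Nestin-Pex5-/- mouse 7 it was 0.56 (adjusted p = 0.0201 in limma) and with arrays weighted by their quality 0.60 (adjusted p = 0.00977 in limma), both past the threshold. It was 0.35 without Nestin-Pex5-/- mouse 10 (adjusted p = 0.297 in limma), 0.36 without mouse 9 (adjusted p = 0.301) and 0.31 with scaling to Actb (adjusted p = 0.0926).

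Mki67 encodes Ki-67, the usual marker of cycling cells. Its values were 4.75, 4.95, 5.24 and 5.35 in Nestin-Pex5-/- mice and 4.62, 5.14, 4.82 and 4.67 in wild type mice. Nestin-Pex5-/- mice 9 and 10 were the highest, and mice 7 and 8 lay among the wild type mice. The log2 fold change was 0.26, with a 95% interval from -0.08 to 0.60 (limma adjusted p = 0.436), and it ran from 0.17 without Nestin-Pex5-/- mouse 10 to 0.37 without mouse 7.

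Top2a, the topoisomerase that untangles sister chromatids, had 5.45, 5.67, 5.64 and 5.66 in Nestin-Pex5-/- mice, against 5.51, 5.38, 5.51 and 5.37 in wild type mice. Mouse 7 alone lay within the wild type range. Top2a differed by 0.16 ± 0.070 (SE, limma adjusted p = 0.276), and the other probe sets of Top2a gave 0.42 and -0.02. Birc5 encodes survivin, a subunit of the chromosomal passenger complex. It had 5.22, 5.34, 5.50 and 5.32 in Nestin-Pex5-/- mice and 4.87, 5.15, 5.01 and 5.30 in wild type mice, a log2 fold change of 0.26 (limma adjusted p = 0.203). Wild type mouse 4 was again the one that lay within the range of the Nestin-Pex5-/- mice.

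Plk1, the kinase that acts in spindle assembly and mitotic exit, had 6.0, 6.05, 6.22 and 6.06 in Nestin-Pex5-/- mice, against 5.99, 5.98, 6.29 and 6.20 in wild type mice. The genotypes overlapped fully, and the difference of -0.03 had an interval from -0.22 to 0.16. Other kinases of mitosis were as close to 0, at 0.05 for Aurka, which acts at the spindle poles, and -0.01 for Aurkb, the kinase of the passenger complex. The spindle checkpoint genes Bub1, Bub1b and Mad2l1 differed by 0.15, 0.02 and -0.06, and Cdc20, the activator of the anaphase-promoting complex that they restrain, by -0.04. The cyclins Ccna2 and Ccnb2 differed by -0.02 and -0.07. Motor proteins and microtubule binding proteins of the spindle ran between -0.13 (Kif11) and 0.04 (Prc1), with Cenpe at -0.05, Kif20a at -0.04 and Nusap1 at -0.02.

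**Figure D2:**
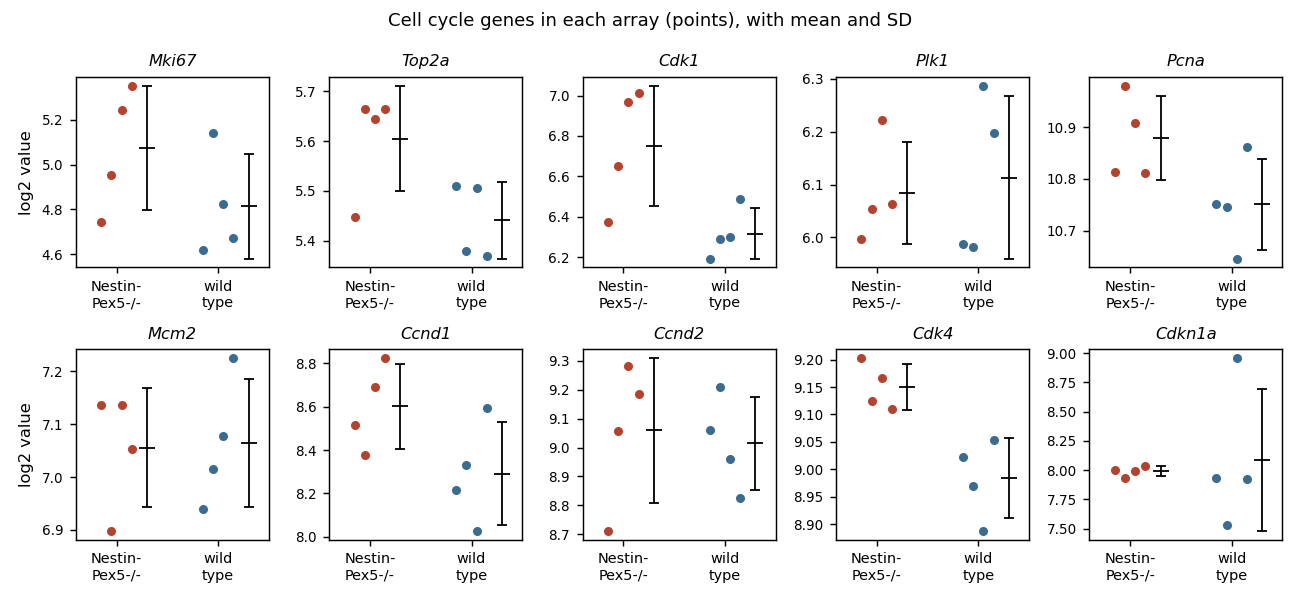
Log2 value of 10 cell cycle genes in each array (points), Nestin-Pex5-/- on the left and wild type on the right of each panel, with the mean and SD of 4 mice beside the points. Each panel has its own vertical axis, which does not start at 0. The genotypes are apart in Cdk4 and overlap in the other 9 genes.

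The balance of S phase and mitosis genes differed between genotypes by less than the spread between mice. The mean of the S phase genes minus that of the mitosis genes was 1.33, 1.34, 1.20 and 1.16 in Nestin-Pex5-/- mice and 1.34, 1.27, 1.19 and 1.29 in wild type mice. The averages were 1.26 ± 0.090 in Nestin-Pex5-/- mice and 1.27 ± 0.062 in wild type mice (SD, n = 4 each), a difference of -0.01 that is smaller than either SD. The means of the mitosis genes alone were 5.49, 5.55, 5.66 and 5.68 in Nestin-Pex5-/- mice, against 5.41, 5.53, 5.61 and 5.61 in wild type mice.

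Of the 43 genes, 32 had more than 1 probe set of their own. Among all 100 probe sets of these genes 0 passed the test when every probe set was tested (limma, lowest adjusted p = 0.126, for Tyms). Of all 34958 probe sets 1049 were higher and 165 lower in that test. At an unadjusted p below 0.05, 13 of the 100 were higher and 1 was lower. The share of all probe sets at that unadjusted level was not computed. Of all genes, each by its brightest probe set, 8.85% were higher and 8.01% lower at that level. The 100 probe sets come from 43 genes, so they are not separate readings. All 18 mitosis genes and 12 of the 16 S phase genes lay below the median signal of all genes, 7.75 on the log2 scale, where the share of the signal that is background is unknown. This is a statement on where the probe sets read and not on how abundant the transcripts were.

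Other genes of the same pathways were taken from wider lists. Of 94 further genes of mitosis, 3 were higher and 0 lower, against 3.98% and 0.791% of all genes. Their median log2 fold change was 0.01. At an unadjusted p below 0.05, 11 were higher and 2 lower, against 8.85% and 8.01% of all genes. The share that passed the test is near that of all genes, so the genes named are described singly. Ncapd2, the condensin subunit whose promoter is printed above, had 7.14, 7.15, 7.15 and 7.11 in Nestin-Pex5-/- mice, against 6.84, 6.86, 6.77 and 6.81 in wild type mice. The genotypes were clearly apart, with a log2 fold change of 0.32 ± 0.050 (SE, limma adjusted p = 0.0048), and its second probe set gave 0.16. Gas2l3, a linker of microtubules and actin at the midbody, had 5.52, 5.56, 5.77 and 5.86 in Nestin-Pex5-/- mice and 5.10, 5.26, 5.13 and 5.05 in wild type mice. It rose by 0.54 (limma adjusted p = 0.0057), and its other probe sets gave 0.32 and 0.58.

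Hmgb2, a chromatin protein of proliferating cells, rose by 0.33 (limma adjusted p = 0.0312) on its brightest probe set. Its direction turned to -0.04 when probe sets that can bind several transcripts, of this gene or of related ones, were taken out. Cks2 and Cks1b, small subunits of cyclin-dependent kinases, and Cep55, which acts in cytokinesis, were higher in Nestin-Pex5-/- mice without overlap and missed the threshold. Their log2 fold changes were 0.52, 0.35 and 0.27, with limma adjusted p = 0.0723, 0.0808 and 0.0611. These 3 genes were named after their values had been seen. Of the 94 further mitosis genes 8 were higher without overlap, against 6.63% of all genes.

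Of 62 further S phase genes 0 were higher and 0 lower (limma), against 3.98% and 0.791% of all genes. At an unadjusted p below 0.05, 1 was higher and 1 lower, against 8.85% and 8.01% of all genes. Their median log2 fold change was -0.02. The 62 genes cover the origin recognition complex, the GINS complex, polymerases, the clamp loader and enzymes of nucleotide supply. Among 35 further genes of G1 and E2F control, 2 were higher and 1 was lower, against 3.98% and 0.791% of all genes. Myc, a transcription factor of growth, had 6.38, 6.39, 6.65 and 6.59 in Nestin-Pex5-/- mice, against 6.06, 5.91, 6.01 and 6.08 in wild type mice. Myc rose by 0.49 ± 0.079 (SE, limma adjusted p = 0.0060), with no overlap.

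Cables1, an adaptor that binds Cdk5 and Cdk2, was lower in all Nestin-Pex5-/- mice, with 7.88, 7.89, 7.65 and 7.82, against 8.18, 8.17, 8.31 and 8.28 in wild type mice. It fell by 0.43 on the log2 scale (limma adjusted p = 0.0067). Ccng1, which encodes cyclin G1 and is a known target of p53, had 9.87, 10.02, 9.95 and 9.99 in Nestin-Pex5-/- mice and 9.64, 9.58, 9.72 and 9.55 in wild type mice. It rose by 0.34 (limma adjusted p = 0.0113). Of 5 further inhibitors 0 passed the test (limma). At an unadjusted p below 0.05, 1 was lower, Cdkn2a at -0.26, against 8.01% of all genes.

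Of 19 genes on a list of p53 and its targets, 2 were higher and 0 lower, against 3.98% and 0.791% of all genes, with a median log2 fold change of 0.05. Gadd45a, which is induced by DNA damage and other stress, had 8.07, 8.32, 8.15 and 8.0 in Nestin-Pex5-/- mice, against 7.64, 7.56, 7.63 and 7.93 in wild type mice. Wild type mouse 4 came closest to the Nestin-Pex5-/- mice, and the log2 fold change was 0.44 (limma adjusted p = 0.0323). Pmaip1, which encodes the pro-apoptotic protein NOXA, rose by 0.29 (limma adjusted p = 0.0413). With Hmgb2 these 2 genes were near the threshold, and most fits that left out 1 mouse lost them.

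**Figure D3:**
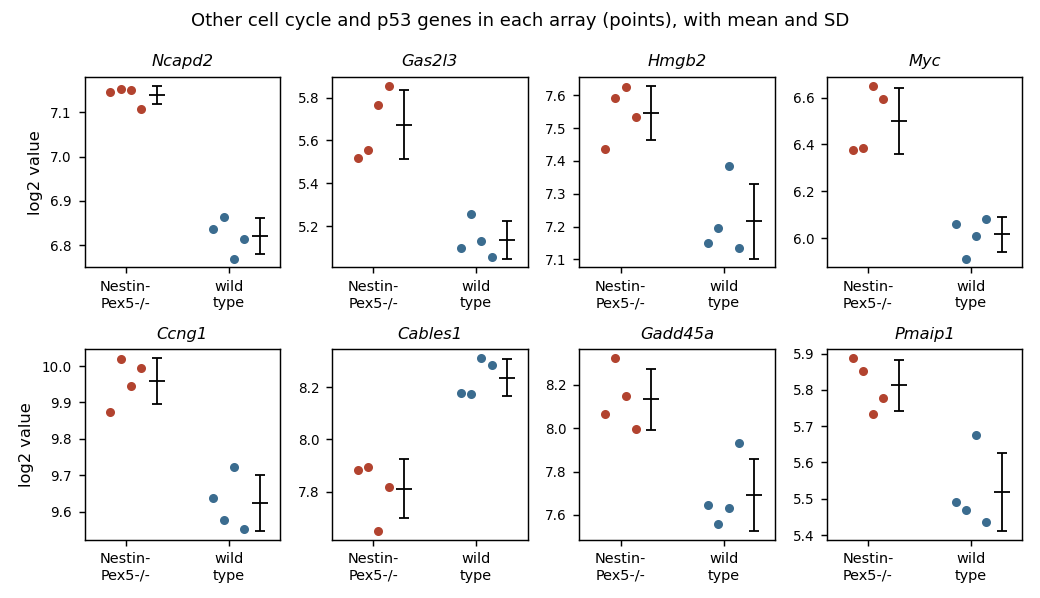
Log2 value of the 8 genes past the threshold on the wider lists in each array (points), Nestin-Pex5-/- on the left and wild type on the right of each panel, with the mean and SD of 4 mice. Each panel has its own vertical axis, which does not start at 0. The genotypes do not overlap in any panel, and Cables1 is the one that is lower in Nestin-Pex5-/- mice.

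Markers of the cells that could hold these transcripts were read in the same arrays. Of 11 microglia markers 10 were up regulated, with a median log2 fold change of 1.71, and Csf1r rose by 1.41, Cx3cr1 by 1.71 and Tyrobp by 2.88. The mean of the list was 9.43 to 9.79 in Nestin-Pex5-/- mice and 7.81 to 8.05 in wild type mice, so the genotypes were far apart in microglia markers where S phase and mitosis genes overlapped. Of 8 astrocyte markers 3 were up regulated (Gfap, Vim and Aqp4), with a median of 0.14 and a mean of the list of 11.98 to 12.21 in Nestin-Pex5-/- mice and 11.31 to 11.55 in wild type mice. Of 7 markers of oligodendrocyte precursors 1 rose, Gpr17 by 0.94, 5 were higher at an unadjusted p below 0.05 and 3 without overlap, and the median was 0.39. The list of precursor markers averaged 9.43 to 9.68 in Nestin-Pex5-/- mice and 9.06 to 9.38 in wild type mice. Among 7 markers of neural progenitors and neuroblasts 0 passed the test in limma (1 higher and 1 lower at an unadjusted p below 0.05), with a median of -0.06. None of the markers of mature oligodendrocytes (7), T and B cells (8), neutrophils and monocytes (8) and endothelium (7) passed in limma, although the 7 of mature oligodendrocytes were higher and 2 of neutrophils and monocytes lower at an unadjusted p below 0.05. Of all genes, 3.98% were higher and 0.791% lower in the test, and 8.85% and 8.01% at an unadjusted p below 0.05. Without overlap, 6.63% of all genes were higher. The part of these cell types in the values of the cell cycle genes was not tested.

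The arrays also differed between mice of the same genotype. Pex5 had 8.67 ± 0.071 in Nestin-Pex5-/- mice and 8.66 ± 0.038 in wild type mice (SD, n = 4 each), and since the position of its probes relative to the deleted part was not determined, this level checks nothing about the genotype. The tissue label was met by its markers, with Pmch at 12.51, Oxt at 11.05 and Avp at 11.52 in Nestin-Pex5-/- mice and 12.64, 11.46 and 11.52 in wild type mice. Of 11 hypothalamus markers 10 had a log2 fold change below 0, with a median of -0.17. In limma 1 passed the test, lower in Nestin-Pex5-/- mice, and 2 were lower at an unadjusted p below 0.05. Of all genes, 0.791% and 8.01% were lower at these levels. Wild type mouse 4 correlated with the other arrays at 0.986 or less. Its choroid plexus markers averaged 7.29, and those of the other wild type mice 8.74 to 9.13.

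Meningeal markers split the Nestin-Pex5-/- mice. Their mean was 7.22, 7.44, 8.49 and 8.44 in Nestin-Pex5-/- mice 7 to 10, against 8.26, 8.26, 8.02 and 8.60 in wild type mice 1 to 4, and all 9 were higher in mice 9 and 10 than in mice 7 and 8. The same order, both of mice 9 and 10 above both of mice 7 and 8, was found in 4 of 6 G1 regulators (66.7%: Ccnd1, Ccnd2, Cdk6 and Rb1), in 8 of 18 mitosis genes (44.4%) and in 3 of 16 S phase genes (18.8%), against 24.3% of all genes. The reverse order was found in 0 G1 regulators, 3 mitosis genes (16.7%) and 4 S phase genes (25%), against 30.9% of all genes. The grouping of mice 9 and 10 against 7 and 8 was chosen after the values had been seen, so these counts are a description. Among the mitosis genes those higher in mice 9 and 10 were Cdk1, Mki67, Plk1, Aurkb, Bub1, Cdc20, Cenpe and Prc1. Markers of mature oligodendrocytes (7 of 7), T and B cells (7 of 8), oligodendrocyte precursors (5 of 7), endothelium (5 of 7) and astrocytes (5 of 8) were also mostly higher in mice 9 and 10. Those of neutrophils and monocytes (3 of 8), anterior pituitary (3 of 6), microglia (2 of 11), neural progenitors (1 of 7), choroid plexus (0 of 7) and hypothalamus (0 of 11, with 6 in the reverse order) were not. The part of tissue makeup in the values of Cdk1 and Mki67 was not tested.

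**Figure D4:**
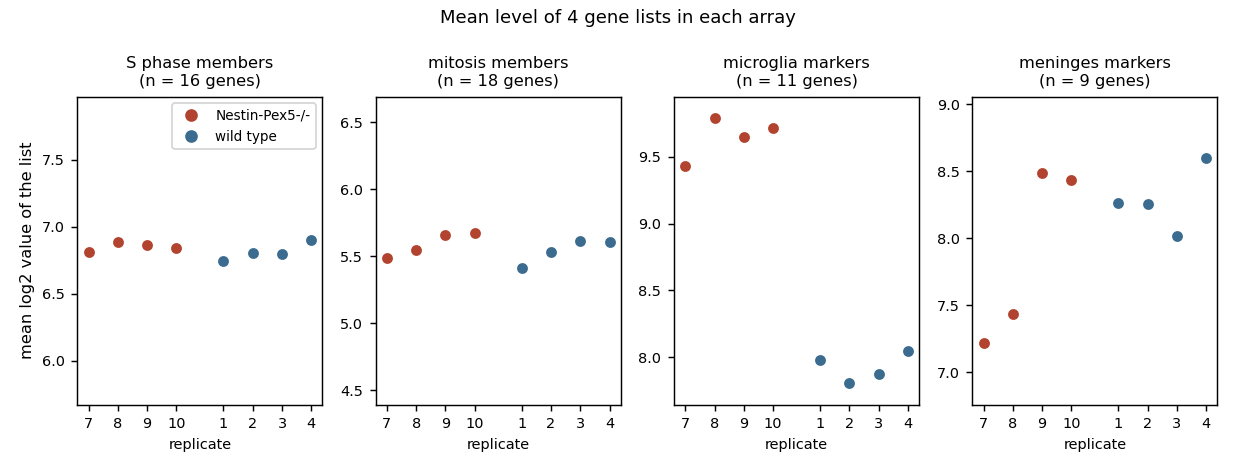
Mean log2 value of 4 gene lists in each array, Nestin-Pex5-/- mice 7 to 10 on the left and wild type mice 1 to 4 on the right of each panel, with the same height of axis in all panels, which do not start at 0. Microglia markers separate the genotypes, S phase and mitosis genes do not, and meningeal markers are low in Nestin-Pex5-/- mice 7 and 8.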

How the data were processed

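RNA was taken from the hypothalamus of 4 Nestin-Pex5-/- and 4 wild type mice, 1 array each. Per the labels, the deposited log2 values come from RMA run by the authors (background correction, quantile normalisation and summary of probes); its version, and any filter, are not given in the sources used here. Arrays give no read depth, and the number of arrays limits the precision. Of 45101 probe sets, 34958 paired with 1 gene were used, the brightest per gene, which gave 18194 genes. No columns were left out.

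The comparison of genotypes used lmFit and eBayes of limma 3.58.1 (R 4.3.3), two-sided and with no covariate, with Benjamini-Hochberg adjustment over all genes and a threshold of 0.05, and for single genes with an exact two-sided permutation test. The fit was tested on simulated data. Limma p-values set the difference between genotypes against the spread between mice of a genotype, which limma moderates over all genes.

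Members and lists were chosen with earlier results of these data known, so no list was given a test. Named with every value were a set of fixed marker genes of proliferation and up to 5 genes past the threshold per wider list. Rb1, Birc5, Tyms, Cdkn1b and Mcm6 were added, though they were not in the fixed set and did not pass the threshold. Alternatives were a filter on level, the mean of probe sets, scaling to Actb, a second quantile normalisation, and eBayes with trend and robust settings. Others were array weights, a threshold of 0.01, a test of every probe set, and leaving out each mouse. A further alternative removed probe sets with the suffixes _s_at, _x_at and _a_at, which can bind several transcripts of a gene or of related genes. Promoters came from RefSeq (GRCm38.p6) and figures from matplotlib 3.10.9 in Python 3.11.15.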

Additional observations from a re-analysis of the deposited data

Results flagged for a closer look

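Of 102 groups of 4 mice, each 1 gene in 1 genotype, 6 held a mouse far from the others by Dixon's criterion at its 95% level, which chance exceeds in about 5% of groups. Of these, 3 were wild type mouse 4, at 10.62 for Cdkn1b (the others 10.08 to 10.15), 8.02 for Ccne1 (7.82 to 7.83) and 8.37 for Mcm7 (8.62 to 8.67). Nestin-Pex5-/- mouse 8 was at 7.65 for Ccne1 (the others 7.81 to 7.84), mouse 7 at 5.45 for Top2a (5.64 to 5.67), and mouse 10 at 7.11 for Ncapd2 (7.14 to 7.15).

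When every probe set was tested in limma, 1049 of all 34958 probe sets were higher and 165 lower. The share of all genes in which a probe set other than the brightest passed alone was not computed. The genes named here were picked because such a probe set passed, so they are described singly. A second probe set passed the limma threshold, adjusted over all probe sets, in 2 genes of mitosis whose brightest probe set did not. For Cks2 it averaged 7.16 in Nestin-Pex5-/- mice and 6.64 in wild type mice, a difference of 0.52 (limma adjusted p = 0.0121). For Tacc3, a protein of spindle microtubules, it averaged 5.67 in Nestin-Pex5-/- mice and 5.25 in wild type mice, a difference of 0.42 (limma adjusted p = 0.0192), and another of its probe sets gave -0.11.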

How the results depend on the processing

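The count of 0 up regulated genes on the list of 44 held under the level filter, the mean of probe sets and both scalings. It also held without the probe sets that can bind several transcripts, and with the trend and robust settings. The same was true of the threshold of 0.01 and of the test of every probe set. It became 4 with array weights (Birc5, Ccnd1, Cdk1 and Rb1, when 7.43% of all genes were higher) and 1, Cdk1, without Nestin-Pex5-/- mice 7 and 8, an alternative chosen after seeing the data that leaves out the lowest Nestin-Pex5-/- values of Cdk1 and so had to raise its difference. Leaving out 1 mouse gave 0 to 1, the 1 being Cdk1 without Nestin-Pex5-/- mouse 7, and 0 down regulated in every case. Without wild type mouse 4, 5.94% of all genes were higher, and the lowest adjusted p of the 43 was 0.0536 (limma), for Birc5. Cdk1 then differed by 0.49 (limma adjusted p = 0.0803). Scaling to Actb subtracts the Actb value of each array, and so lowered every log2 fold change by the same amount. The median of all genes became -0.16, that of S phase genes -0.065 and that of mitosis genes -0.141. With this scaling 1 gene was lower, Tyms, when 540 of all 18194 genes were higher and 1086 lower. At an unadjusted p below 0.05 in limma, 1 of the 43 was then higher and 6 were lower. In the main fit 6 had been higher and 1 lower. The share of all genes at that unadjusted level was not computed for this scaling. The cause of the changes with array weights and with mice left out was not tested.

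Directions of small differences turned. Mcm2 became 0.10 with the mean of probe sets, 0.21 without those that can bind several transcripts and 0.065 with array weights. With array weights Plk1 became 0.063 and Cdkn1a 0.0063, and with Actb scaling Ccnd2 became -0.082. Hmgb2 became -0.041 without the probe sets that can bind several transcripts. Leaving out 1 mouse gave -0.050 to 0.045 for Mcm2, -0.029 to 0.162 for Ccnd2, -0.075 to 0.029 for Plk1 and -0.284 to 0.191 for Cdkn1a, and -0.040 to 0.019 for S phase minus mitosis. With Actb scaling Ncapd2 (limma adjusted p = 0.0762), Ccng1 (limma adjusted p = 0.0747), Hmgb2, Gadd45a and Pmaip1 no longer passed, while Gas2l3, Myc and Cables1 passed under each alternative that tested them. Under the level filter no mitosis gene was left, so it gave no median. No paired analysis was possible because the genotypes share no replicate number.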
